A study of Homo sapiens with 40 samples.

Results

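The genes described here are 58 human genes of mitosis and the spindle checkpoint, chosen by name from their known roles, with earlier results of these data known. All 58 had at least 1 probe on the array, out of 20028 genes with a probe, and 57 passed the filter on dim probes and were tested among 13461 genes. The 1 member without a tested value is NCAPH, a condensin subunit. All 57 tested members were above the background level on all 39 arrays used, so these are genes with a measurable signal in every culture. H1 and H9 human embryonic stem cells, both established lines, were transduced with lentivirus and sampled daily from day 0 to day 7, with 8 arrays in each of 5 arms. The arms are H1 cells with an OCT4 shRNA, H9 cells with an OCT4 shRNA, H1 cells with a NANOG shRNA, H1 cells with a SOX2 shRNA, and H1 cells with a control virus. All arms shared Matrigel-coated plates, mTeSR medium and polybrene, and H9 has no control arm. Each arm is 1 time course with 1 array a day and the labels name no separate cultures, so the days of a window stand in for replicates. A p-value here therefore measures only the scatter of days around their window mean, and an SD is taken over days. The NANOG shRNA array of day 7 is on another scale and was left out, which leaves 3 late arrays in that arm.

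Mitosis is driven by cyclin B and cyclin A bound to the kinase CDK1, with help from the Polo-like and Aurora kinases. The spindle checkpoint holds the anaphase-promoting complex inactive until every kinetochore is attached to the spindle. Release of CDC20 then lets the complex destroy securin and cyclin B, so that separase can open cohesin and the chromosomes part. Transcripts of these genes accumulate together late in the cell cycle, under the MuvB complex with B-MYB and FOXM1, and embryonic stem cells, which divide fast, express them strongly. In RNA from whole cultures, fewer cells in mitosis and less of these transcripts in each cell cannot be told apart.

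Levels are log2 intensities after background correction, on which the background level is 6.58, and the level of a gene is that of 1 probe, so levels are not compared between genes. A call is an adjusted p under 0.05 from limma with Benjamini-Hochberg adjustment over all 13461 genes. POU5F1, the gene of OCT4, stood at 7.17, 6.75, 6.77 and 6.46 on days 4 to 7 in H1 cells with the OCT4 shRNA, against 12.57, 12.63, 12.87 and 12.74 in H1 control cells. The knockdown arrays were all far below the control arrays. NANOG was between 6.48 and 6.91 on the 3 late NANOG shRNA arrays, against 8.42 to 8.96 in control cells, and SOX2 was between 9.97 and 10.40 on the late SOX2 shRNA arrays, against 11.82 to 12.40 in control cells.

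Many of the promoters found for these genes carry words through which late cell cycle transcription is known to act. RefSeq promoter windows of build GRCh38.p14, from 250 bases before to 50 after a start, were found for 50 of the 58 members, in 64 windows, since some genes have several starts. The letters TTTGAA, the core of the cell cycle genes homology region that the MuvB complex contacts, were present on either strand in 57.8% of the members' windows and in 15.2% of all 35116 promoter windows of that length. The related letters TTCGAA were in 7.81% of members' windows and 1.45% of all windows, and either form in 64.1% of members' windows and 16.4% of all. The letters CCAAT, contacted by NF-Y, were in 67.2% of members' windows and 34.6% of all windows. Of the E2F-type words, TTCCCGC was in 14.1% of members' windows and 6.55% of all windows, and TTGGCGC in 9.38% of members' windows and 3.04% of all windows. Both strands were searched for each word, and windows of 1 gene can overlap. A match describes the letters of the window and is not a shown binding site.

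The sequences below run from 100 bases before the start to 25 after it, in the direction of the gene, with both forms of the homology region's core and the CCAAT box, on either strand, in capitals. The first 4 are well-studied late cell cycle genes; NUF2 and ANLN were not called lower with the OCT4 shRNA; the last 4 had the largest falls among members with a single window, and were picked after their values were seen.
CCNB1, chr5:69167050-69167174, + strand: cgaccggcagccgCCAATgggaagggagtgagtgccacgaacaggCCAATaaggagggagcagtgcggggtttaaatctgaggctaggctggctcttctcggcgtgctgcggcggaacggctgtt
CCNB2, chr15:59105046-59105170, + strand: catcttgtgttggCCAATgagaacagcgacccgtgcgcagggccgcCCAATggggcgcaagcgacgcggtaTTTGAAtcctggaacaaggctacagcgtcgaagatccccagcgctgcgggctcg
CDC20, chr1:43358881-43359005, + strand: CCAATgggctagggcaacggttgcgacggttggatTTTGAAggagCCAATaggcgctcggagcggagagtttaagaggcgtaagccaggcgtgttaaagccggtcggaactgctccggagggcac
PLK1, chr16:23678789-23678913, + strand: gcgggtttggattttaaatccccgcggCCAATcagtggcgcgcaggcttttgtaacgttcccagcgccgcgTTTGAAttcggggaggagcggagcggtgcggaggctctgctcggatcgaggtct
NUF2, chr1:163321854-163321978, + strand: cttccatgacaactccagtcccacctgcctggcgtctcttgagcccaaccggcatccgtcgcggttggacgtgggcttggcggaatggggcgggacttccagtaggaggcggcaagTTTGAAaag
ANLN, chr7:36389762-36389886, + strand: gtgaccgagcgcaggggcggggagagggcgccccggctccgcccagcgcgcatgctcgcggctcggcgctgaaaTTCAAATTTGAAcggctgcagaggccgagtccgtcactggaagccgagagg
CDCA5, chr11:65084016-65084140, - strand: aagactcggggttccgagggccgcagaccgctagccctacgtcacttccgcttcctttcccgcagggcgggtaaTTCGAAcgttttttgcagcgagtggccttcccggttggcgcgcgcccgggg
DLGAP5, chr14:55191561-55191685, - strand: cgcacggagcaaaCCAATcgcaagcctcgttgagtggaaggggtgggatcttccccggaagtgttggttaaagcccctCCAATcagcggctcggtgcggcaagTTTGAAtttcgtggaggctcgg
BUB1, chr2:110678039-110678163, - strand: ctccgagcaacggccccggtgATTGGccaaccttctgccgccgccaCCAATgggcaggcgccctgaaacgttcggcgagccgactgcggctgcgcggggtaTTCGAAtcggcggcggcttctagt
TOP2A, chr17:40417872-40417996, - strand: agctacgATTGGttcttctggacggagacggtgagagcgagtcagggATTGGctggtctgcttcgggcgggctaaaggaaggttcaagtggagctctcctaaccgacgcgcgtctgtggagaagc

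In ANLN the word stands on both strands side by side, which gives 1 longer run of capitals. CCNB2 and PLK1 hold it at the same distance, from 29 to 24 bases before the start, with CCAAT upstream. CCNB1 has CCAAT at 2 places but neither form of the word in the printed stretch. The 39 tested members with TTTGAA or TTCGAA in a window had a median log2 difference of -0.64 between H1 OCT4 shRNA and control cells on days 4 to 7, and the 10 tested members with a window but without the letters had a median of -0.81. Of these, 35 of the 39 and all 10 of the 10 were called lower.

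With the OCT4 shRNA in H1 cells, on days 4 to 7, 53 of the 57 tested members were lower than in control cells, 0 were higher and 4 were not called. Over all 13461 genes, 24.3% were called lower and 23.8% higher in this comparison. The median log2 difference of the members was -0.66, against -0.00 over all genes tested, and all 57 differences were negative, from -1.51 to -0.17. The fall was at least 2-fold in 11 members. For 40 members all 4 late OCT4 shRNA arrays were below all 4 late control arrays. Such separation was not counted over all genes, so the 40 cannot be set against a general share. The 27 further passing probes, of 22 of the members, all had negative differences with a median of -0.61. These came from a separate fit on single probes with 1 gene symbol, without the filter on dim probes. In that fit, adjusted over its own probes, 20 of the 27 were called lower. The share of all its probes called lower is not given here.

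**Figure D1:**
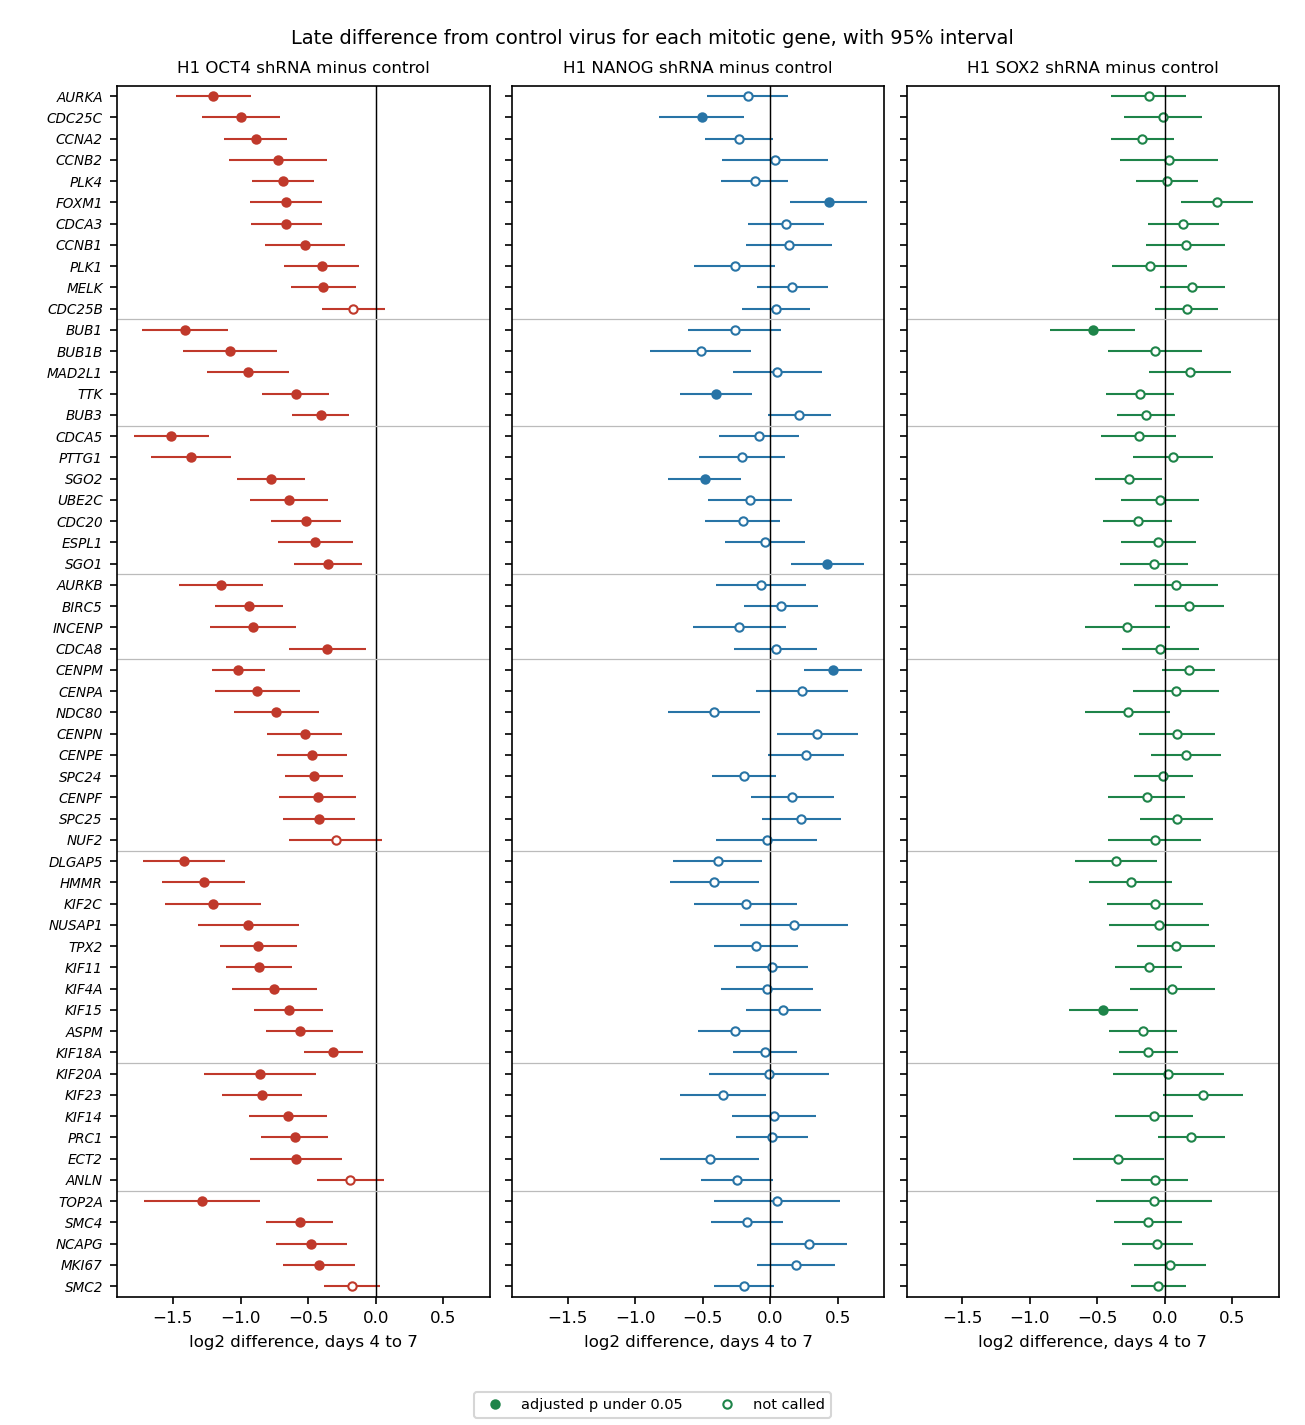
Difference in log2 level from H1 control cells on days 4 to 7 for each of the 57 tested members (rows, by role and then by size), with its 95% interval, for the OCT4, NANOG and SOX2 shRNA arms. All points of the OCT4 arm lie left of 0 and 53 are filled (called), while 6 are filled in the NANOG arm and 2 in the SOX2 arm.

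Among the 11 mitotic cyclins, entry kinases and regulators, 10 were lower with the OCT4 shRNA and 1 was not called, with a median log2 difference of -0.66. AURKA, the Aurora kinase of centrosomes and spindle poles, had the largest fall of this group. Its level was 10.93, 10.39, 10.29 and 10.76 on days 4 to 7 in OCT4 shRNA cells, against 12.02, 11.80, 11.73 and 11.62 in control cells. The groups did not overlap, and the lowest arrays were those of days 5 and 6. The log2 difference was -1.20 ± 0.14 (SE), a 2.30-fold fall, with an adjusted p of 8.75e-09.

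The phosphatase CDC25C, which switches on CDK1, fell by 1.00 on the log2 scale, and cyclin A2 (CCNA2) by 0.89. The cyclins CCNB2 and CCNB1 fell by 0.72 and 0.52. FOXM1, the transcription factor of late cell cycle genes, fell by 0.66, as did CDCA3, which targets the kinase WEE1 for destruction. PLK4, the kinase of centriole duplication, fell by 0.69, PLK1, the Polo-like kinase of mitotic entry and spindle assembly, by 0.40, and the kinase MELK by 0.39. CDC25B, a phosphatase that acts early in mitotic entry, was the member that was not called: 9.54, 9.25, 9.03 and 9.18 in OCT4 shRNA cells, against 9.54, 9.58, 9.41 and 9.14 in control cells. These arrays overlapped, and the log2 difference of -0.17 had an adjusted p of 0.239.

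All 5 checkpoint genes were lower with the OCT4 shRNA, with a median log2 difference of -0.94. BUB1, a kinase that builds the checkpoint platform at kinetochores, stood at 9.63, 9.11, 8.94 and 9.16 on days 4 to 7 in OCT4 shRNA cells, against 10.83, 10.49, 10.71 and 10.47 in control cells. Every knockdown array was below every control array. The log2 difference was -1.41 ± 0.16 (SE), a 2.66-fold fall with an adjusted p of 4.89e-09. BUB1B, the BubR1 protein that binds and restrains CDC20, fell by 1.08, and MAD2L1, its partner in that inhibitor, by 0.94. TTK, the MPS1 kinase that starts the signal, fell by 0.59. BUB3, which carries BUB1 and BUB1B to kinetochores, had the smallest fall, at 12.11, 11.94, 11.87 and 12.01 in OCT4 shRNA cells, against 12.49, 12.26, 12.52 and 12.29 in control cells. These groups did not overlap either, at a log2 difference of -0.41 and an adjusted p of 0.00155.

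All 7 genes of anaphase onset and cohesion were lower, with a median log2 difference of -0.64. CDCA5, or sororin, which protects cohesin on replicated chromosomes, had the largest fall of all members. It stood at 10.58, 9.83, 9.90 and 9.92 in OCT4 shRNA cells on days 4 to 7, against 11.46, 11.57, 11.59 and 11.66 in control cells. The day 4 array was the highest of the knockdown arrays and still below each control array. The log2 difference was -1.51 ± 0.13 (SE), a 2.85-fold fall with an adjusted p of 6.38e-11.

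PTTG1, or securin, the inhibitor of separase, fell by 1.36 and SGO2, a shugoshin that guards centromeric cohesin, by 0.77. UBE2C, the ubiquitin-conjugating enzyme of the anaphase-promoting complex, fell by 0.64, CDC20, its activator, by 0.51, and ESPL1, separase, by 0.45. SGO1, the other shugoshin, had the smallest fall: 7.95, 7.68, 7.85 and 8.00 in OCT4 shRNA cells, against 8.40, 8.20, 8.11 and 8.18 in control cells. Its arrays did not overlap, but the log2 difference of -0.35 (adjusted p = 0.0169) was no longer called without the control array of day 4 or the knockdown array of day 5, at -0.29 in each case.

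All 4 members of the chromosomal passenger complex, which corrects faulty attachments and then acts at the midzone, were lower, with a median log2 difference of -0.92. AURKB, its kinase, stood at 10.66, 9.89, 9.93 and 10.40 in OCT4 shRNA cells, against 11.46, 11.49, 11.40 and 11.10 in control cells. The groups did not overlap, with the knockdown arrays of days 5 and 6 lowest, and the log2 difference was -1.15 ± 0.15 (SE), a 2.21-fold fall (adjusted p = 1.76e-07). BIRC5, or survivin, which docks the complex at centromeres, fell by 0.94, and the scaffold INCENP by 0.91. CDCA8, or borealin, had the smallest fall, at 9.86, 9.48, 9.40 and 9.92 in OCT4 shRNA cells, against 10.09, 9.99, 10.10 and 9.91 in control cells. These arrays overlapped on day 7, when the knockdown array (9.92) was just above the control array (9.91). The log2 difference of -0.36 (adjusted p = 0.0344) lost its call without 1 of 5 single arrays (control days 4, 5 or 6, knockdown days 5 or 6), at -0.37 to -0.27.

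**Figure D2:**
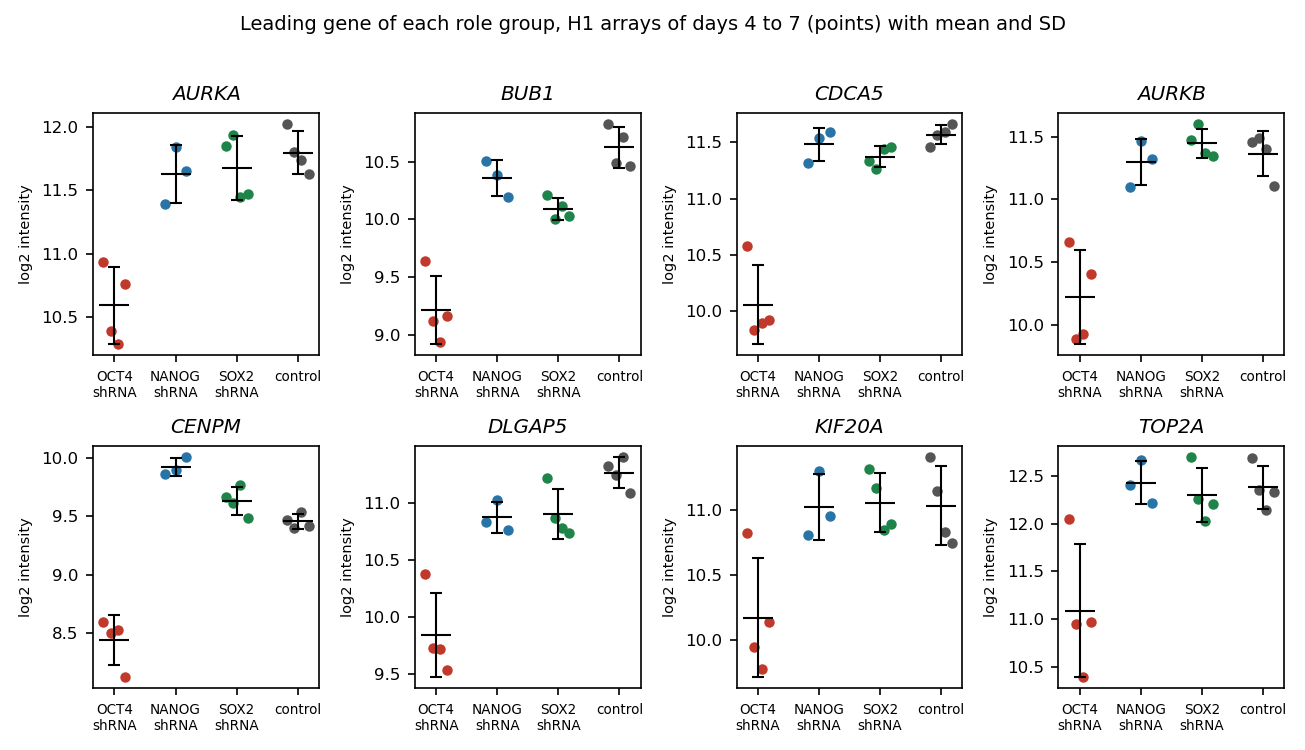
Log2 intensity on each H1 array of days 4 to 7 (points, day 4 leftmost within an arm) for the member with the largest fall in each role group, with the mean and SD over days. The OCT4 shRNA points lie below all control points in each panel but that of KIF20A, and CENPM on the NANOG shRNA arrays (9.86 to 10.00) lies above its control arrays (9.40 to 9.54).

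Of 9 centromere and kinetochore genes, 8 were lower and 1 was not called, with a median log2 difference of -0.47, smaller than in the checkpoint and passenger groups. CENPM, a subunit of the constitutive centromere network, stood at 8.60, 8.50, 8.53 and 8.12 in OCT4 shRNA cells, against 9.47, 9.40, 9.54 and 9.42 in control cells. The control arrays lay close together, and every knockdown array was below them. The log2 difference was -1.02 ± 0.10 (SE), a 2.02-fold fall with an adjusted p of 2.72e-10. CENPA, the centromeric histone, fell by 0.88, NDC80, which grips microtubules, by 0.74, and CENPN, which reads the CENPA nucleosome, by 0.52. The motor CENPE fell by 0.47, SPC24 and SPC25, the NDC80 complex subunits that anchor it to the kinetochore, by 0.46 and 0.42, and the outer protein CENPF by 0.43. NUF2, the partner of NDC80, stood at 7.48, 7.13, 6.77 and 7.62 in OCT4 shRNA cells, against 7.80, 7.53, 7.54 and 7.30 in control cells. These arrays overlapped, and the log2 difference of -0.30 (adjusted p = 0.154) was not called.

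All 10 spindle and kinesin genes were lower, with a median log2 difference of -0.87. DLGAP5, a protein that stabilises kinetochore fibres, stood at 10.37, 9.73, 9.72 and 9.54 in OCT4 shRNA cells, against 11.32, 11.24, 11.40 and 11.08 in control cells. The groups did not overlap, with the knockdown arrays of days 5 to 7 below that of day 4. The log2 difference was -1.42 ± 0.15 (SE), a 2.68-fold fall (adjusted p = 1.77e-09). HMMR, a spindle assembly factor, fell by 1.27, KIF2C, a kinesin that takes microtubules apart at centromeres, by 1.20, and NUSAP1, which bundles microtubules, by 0.94. TPX2, the activator of AURKA, fell by 0.87, KIF11, the kinesin that separates the poles, by 0.86, and the chromokinesin KIF4A by 0.75. KIF15, another motor of spindle bipolarity, fell by 0.64 and ASPM, a protein of the spindle poles, by 0.56. KIF18A, which dampens chromosome movement, had the smallest fall. It stood at 7.40, 7.21, 7.11 and 6.93 in OCT4 shRNA cells, against 7.54, 7.29, 7.54 and 7.55 in control cells. These arrays overlapped through the low control array of day 5, and the log2 difference of -0.31 (adjusted p = 0.0158) was -0.24 and not called without the knockdown array of day 7.

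Of 6 genes of the midzone and cytokinesis, 5 were lower, with a median log2 difference of -0.62. KIF20A, a kinesin that carries the passenger complex to the midzone, stood at 10.82, 9.95, 9.78 and 10.14 in OCT4 shRNA cells, against 11.40, 11.14, 10.83 and 10.74 in control cells. The day 4 knockdown array lay within the control range, and the log2 difference was -0.86 ± 0.20 (SE, adjusted p = 0.000702). KIF23, the motor of centralspindlin, fell by 0.84, KIF14, a kinesin of the midbody, by 0.65, PRC1, which cross-links the midzone, by 0.60, and ECT2, which activates RhoA for furrowing, by 0.59. ANLN, anillin, the scaffold of the contractile ring, stood at 9.43, 8.96, 8.77 and 9.06 in OCT4 shRNA cells, against 9.46, 9.18, 9.34 and 8.996 in control cells. The arrays overlapped, and the log2 difference of -0.19 had an adjusted p of 0.208.

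Of 5 tested condensin and chromosome structure genes, 4 were lower, with a median log2 difference of -0.48. TOP2A, which untangles sister DNA, stood at 12.04, 10.95, 10.40 and 10.97 in OCT4 shRNA cells, against 12.68, 12.35, 12.14 and 12.33 in control cells. The knockdown arrays varied more than the control arrays and were all below the control arrays. The log2 difference was -1.28 ± 0.21 (SE), a 2.43-fold fall (adjusted p = 6.43e-06). The condensin subunits SMC4 and NCAPG fell by 0.56 and 0.48, and MKI67, the Ki-67 protein that coats mitotic chromosomes and serves as a proliferation marker, by 0.42. SMC2, the core subunit that pairs with SMC4, stood at 8.00, 8.00, 8.05 and 8.17 in OCT4 shRNA cells, against 8.06, 8.23, 8.61 and 8.02 in control cells. These arrays overlapped, and its log2 difference was -0.18 with an adjusted p of 0.152.

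Other genes of the same machinery were called in both directions. Of 88 further genes of mitosis in 7 lists, 83 were tested with the OCT4 shRNA on days 4 to 7, of which 30 were lower, 13 higher and 40 not called, with a median log2 difference of -0.21. The share of all genes in this comparison was 24.3% lower and 23.8% higher, and several of the lists' counts are near it. Of 11 genes for CDK1 and its regulators 6 were lower and 0 higher, among them CKS2, a small CDK1 subunit, at -1.05, and CDK1 itself at -0.86. Of 14 tested genes of the anaphase-promoting complex 4 were lower and 4 higher, and the largest differences were those of the subunit ANAPC13, at 1.05, and of FBXO5, the inhibitor EMI1, at -0.74. Of 8 cohesin genes 2 were lower and 1 higher: RAD21, the kleisin that separase cuts, was at -0.83, the subunit STAG1 at 0.79 and STAG2 at -0.42.

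All 4 other condensin subunits were called, 3 lower and 1 higher, led by NCAPG2 at -1.82 and NCAPD2 at -0.89. Of 23 other kinetochore and checkpoint genes 7 were lower and 5 higher, led by SKA3, a microtubule coupler, at -1.32 and CENPT at 0.99. Of 13 other spindle genes 6 were lower and 1 higher, led by TACC3 at -0.85 and the kinesin KIFC1 at -0.72. Of 10 genes of the MuvB and DREAM complex 2 were lower, RBBP4 at -0.51 and MYBL2, or B-MYB, at -0.38, and 1 was higher, the subunit LIN37 at 1.14. All differences in these lists are log2 differences between OCT4 shRNA and control cells.

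The fall came late in the week. The median log2 difference of the members between the OCT4 shRNA array and the control array of the same day was -0.07, -0.00, -0.18 and -0.12 on days 0 to 3. It was -0.38, -0.82, -0.99 and -0.57 on days 4 to 7. On these last 4 days 56, 57, 57 and 52 of the 57 members were below the control array of that day. By contrast, POU5F1 was already at 10.97 on day 1 and 8.69 on day 3 in OCT4 shRNA cells, against 12.73 and 12.79 in control cells. On days 0 and 1 no member was called, where 0% of all genes were called lower and 0.0149% higher. An unadjusted p under 0.05 was reached by 1 member and by 700 of the 13461 genes. On days 2 and 3 only PLK1 was called by limma, at a log2 difference of -0.74, with 2.45% of all genes called lower and 2.8% higher. For the alternative fits that follow, the shares of all genes called are not given here. With the day as a block 6 members were called in that window, and leaving out single days or arrays gave between 0 and 5, with 0 without the control array of day 2 or of day 3.

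**Figure D3:**
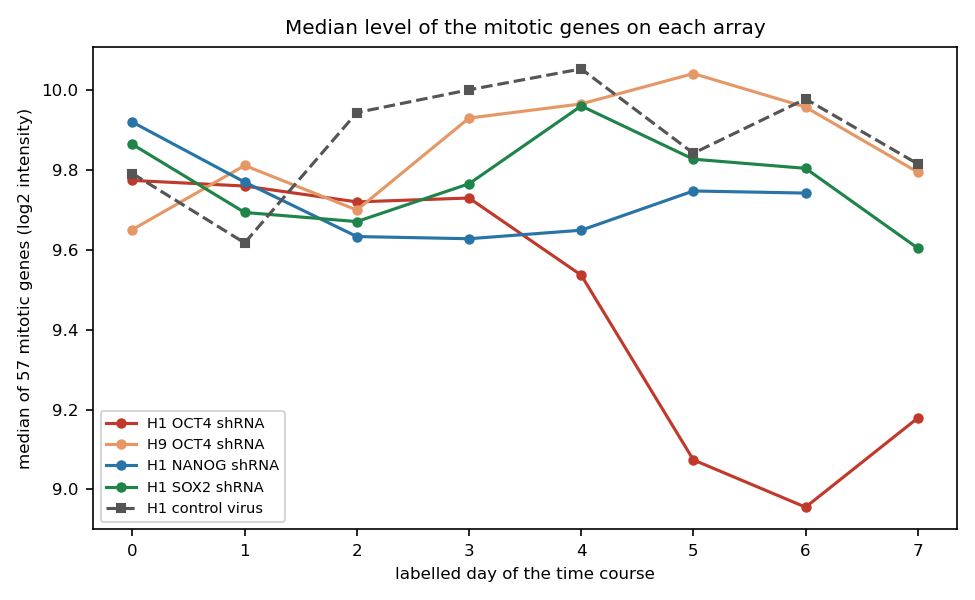
Median log2 intensity of the 57 tested members on each array, by day and arm. The OCT4 shRNA arm of H1 drops to 8.96 on day 6, while the arrays of the other arms stay between 9.60 and 10.05.

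Within the OCT4 shRNA arm itself, 40 members were lower on days 4 to 7 than on days 0 and 1, with a median log2 change of -0.71, where 20.3% of all genes were called lower and 21.8% higher. In the control arm no member was called between these windows and the median change was 0.02. Of all genes 0.371% were called lower and 0.163% higher. An unadjusted p under 0.05 was reached by 3 members and by 1726 of the 13461 genes. Without the control array of day 7, 1 member was called, and the share of all genes called there is not given. With the difference at the start subtracted, 30 members were lower in OCT4 shRNA than in control cells (median log2 difference -0.72), against 11.9% of all genes lower and 11.9% higher. Fewer members were called without the arrays of day 0 or those of day 1, each of which leaves 1 early array per arm. The shares of all genes called in those fits are not given here. The median log2 difference ran from -0.84 to -0.62 without single days or arrays. The deepest change over time in H1 was that of PTTG1, at -1.40. Its daily levels were 12.90, 12.53, 12.54, 12.28, 11.67, 11.26, 10.87 and 11.45 from day 0 to day 7, lowest on day 6 and partly back on day 7.

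**Figure D4:**
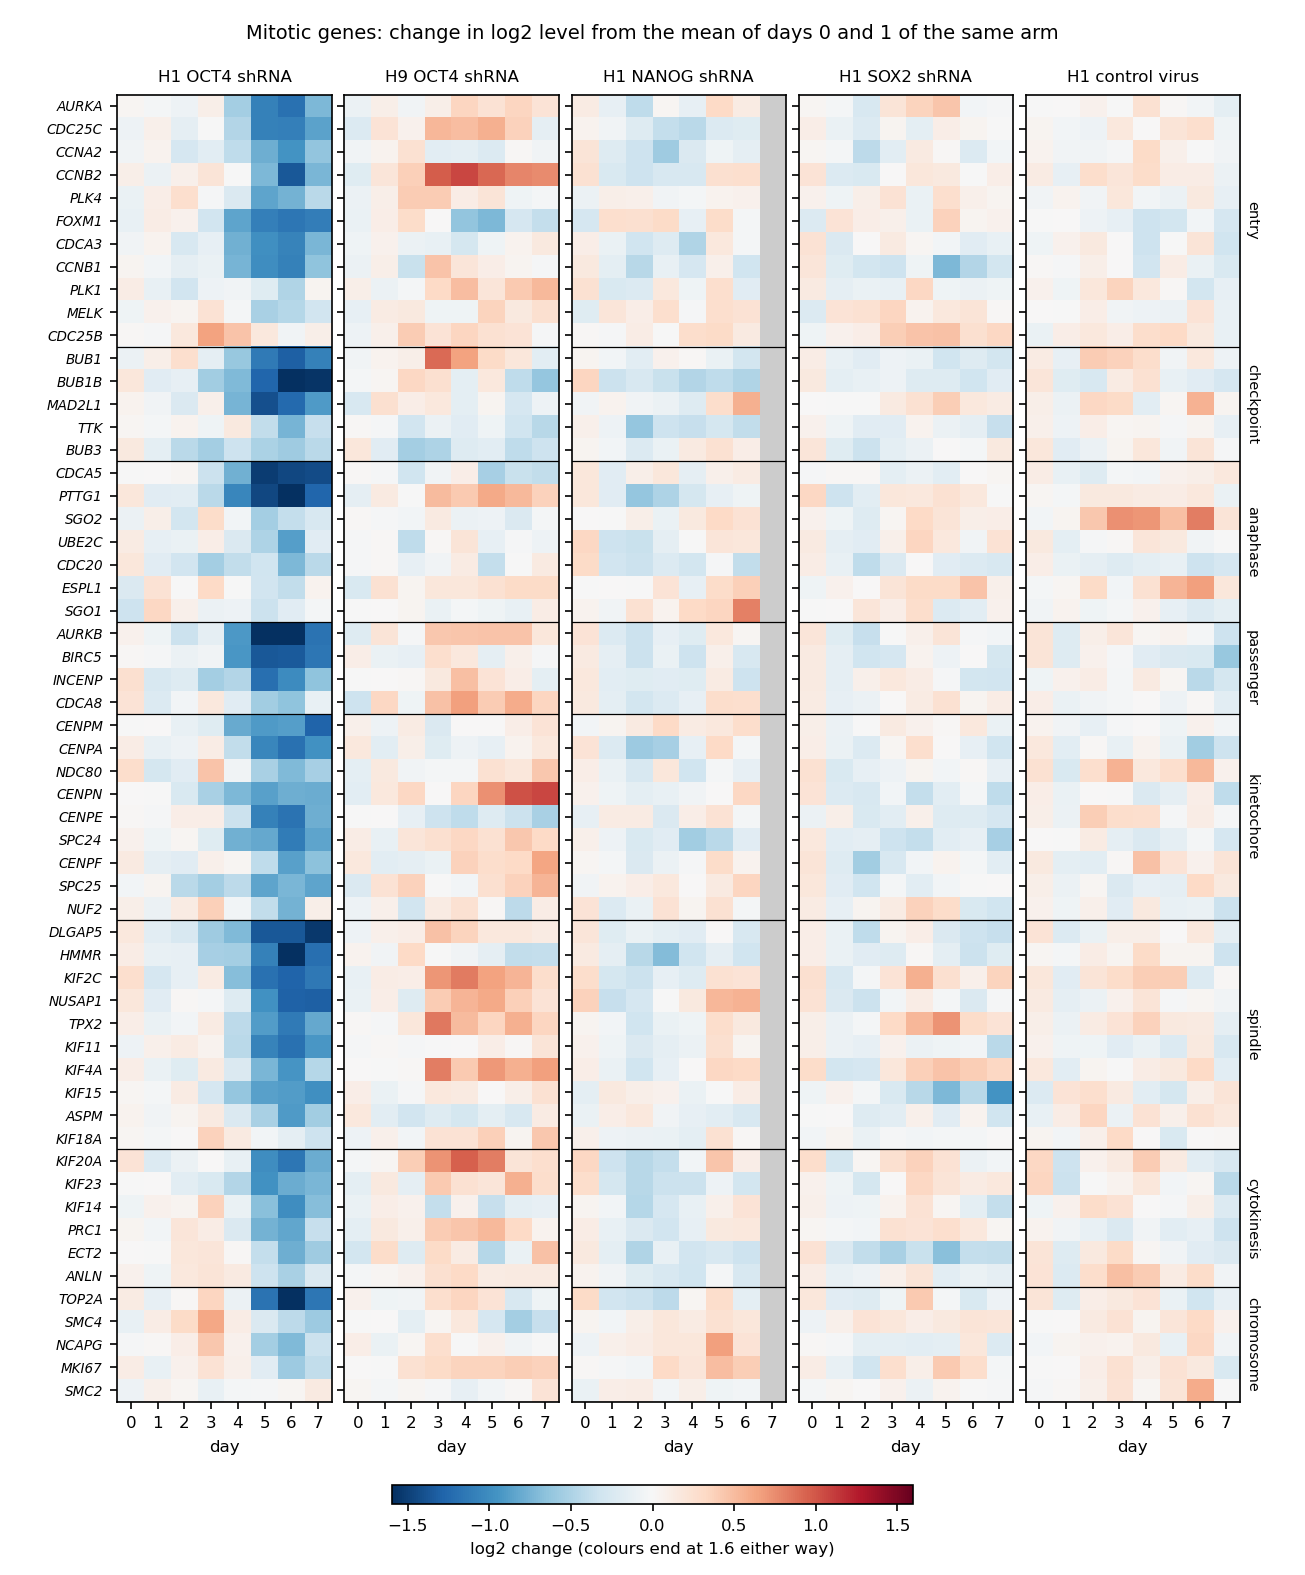
Change in log2 level of each tested member (rows, by role) on each day (columns) from the mean of days 0 and 1 of the same arm, with blue for lower and red for higher; the grey column is the array that was left out. Blue fills days 4 to 7 of the H1 OCT4 shRNA arm, deepest on days 5 and 6. In the other arms the median change was no lower than -0.23 (NANOG shRNA, day 2). Most members were still below their start on some of those arrays, such as 45 of 57 on day 7 of the control.

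Markers of other cell types also changed in the H1 OCT4 shRNA arm, some of them before most of this fall. On days 2 and 3, 6 of the 10 trophectoderm and amnion markers were already called higher, where 2.8% of all genes were higher. Over days 4 to 7, 23.8% of all genes were called higher and 24.3% lower in OCT4 shRNA than in control cells, a share that stands beside each late count here. All 10 trophectoderm and amnion markers were higher. Their summed deposited intensity was 27129 to 39893 in OCT4 shRNA cells, against 1348 to 1420 in control cells. HAND1, a transcription factor of that marker list, was at 9.22 on day 2 and 12.68 on day 3 in OCT4 shRNA cells, against 6.08 and 5.91 in control cells. Of 6 tested fibroblast and mesenchyme markers 5 were higher, and their summed intensity was 6148 to 27598 in OCT4 shRNA cells, against 5477 to 7879 in control cells, with LUM in OCT4 shRNA cells at 6.07 on day 3 and 9.59 to 11.08 afterwards. COL3A1, LUM and DCN were below background on all late control arrays. THY1, the other marker of that list, was lower, at a mean of 9.24 in OCT4 shRNA cells, against 11.65 in control cells. Of 7 tested pluripotency markers 6 were lower, among them POU5F1, the target of the shRNA itself, at a log2 difference of -5.91. The sum of the 7, which includes POU5F1, was 8773 to 23063 in OCT4 shRNA and 42256 to 47367 in control cells. ZFP42 was higher, at a mean of 11.79 in OCT4 shRNA cells, against 11.49 in control cells. Of 6 tested neuroectoderm markers 2 were lower and 0 higher, where 24.3% of all genes were lower. Their sums overlapped, at 2078 to 2736 in OCT4 shRNA and 2534 to 3435 in control cells. The count of 2 is therefore not read as a change of these markers. The part of a changed cell makeup in the fall of the mitotic genes was not tested.

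With the NANOG shRNA the members' late log2 differences from control ran from -0.52 to 0.47. On days 4 to 6 of the knockdown, against days 4 to 7 of the control, 3 members were called higher and 3 lower, where 7.84% of all genes were higher and 7.55% lower, and the median log2 difference was -0.04. An unadjusted p under 0.05 was reached by 13 members and by 3680 of the 13461 genes. The 6 calls became 19 with array weights and 11 in a fit on only the arms compared. For these settings the shares of all genes called are not given here. The changed counts are therefore not read as results about the members. Among the 6 calls, the 3 higher ones were CENPM, FOXM1 and SGO1. CENPM stood at 9.86, 9.90 and 10.00 in NANOG shRNA cells, against 9.47, 9.40, 9.54 and 9.42 in control cells, without overlap, at a log2 difference of 0.47 (adjusted p = 0.00195). With the OCT4 shRNA it was lower than in control cells. FOXM1 stood at 9.19, 9.61 and 9.29 in NANOG shRNA cells, against 8.83, 8.87, 9.12 and 8.90 in control cells (log2 difference 0.43). SGO1 stood at 8.48, 8.50 and 8.96 in NANOG shRNA cells, against 8.40, 8.20, 8.11 and 8.18 in control cells (0.42).

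CDC25C stood at 8.56, 8.78 and 8.80 in NANOG shRNA cells, against 9.12, 9.31, 9.39 and 9.05 in control cells, at a log2 difference of -0.51. SGO2 stood at 8.03, 8.18 and 8.10 in NANOG shRNA cells, against 8.74, 8.52, 8.85 and 8.24 in control cells (-0.49). TTK stood at 9.58, 9.66 and 9.54 in NANOG shRNA cells, against 10.05, 10.00, 10.06 and 9.88 in control cells (-0.40). None of these 6 genes had overlapping arrays. The calls other than those of CENPM and SGO2 ended without at least 1 single array: CDC25C without the knockdown array of day 4 at -0.43, FOXM1 without that of day 5 at 0.31, SGO1 without that of day 6 at 0.26 and TTK without that of day 4 at -0.39. SGO2 lost its call without both arrays of day 4 or of day 6, at -0.40. Among all alternative fits, the result was weaker in 7 for CDC25C, 10 for FOXM1, 9 for SGO1 and 11 for TTK. It was the same in 19, 16, 17 and 15 fits for these genes in that order. The total of 6 was 1 without the arrays of day 6, 3 without the NANOG shRNA array of that day and 3 without the arrays of day 4. It was 2 without the arrays of day 5, 2 without the control array of day 5 and 3 without that of day 6. For these totals the shares of all genes called are not given here.

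On days 0 and 1 no member was called with the NANOG shRNA, where 0.00743% of all genes were called lower and 0% higher. An unadjusted p under 0.05 was reached by 0 members and by 489 of the 13461 genes. On days 2 and 3 the median log2 difference of the members was -0.34, with 47 of 57 negative. Of the members 4 were called lower and 1 higher, against 1.78% of all genes lower and 2.17% higher. An unadjusted p under 0.05 was reached by 24 members and by 2403 of the 13461 genes. The called members were TTK at -0.62, SGO2 at -0.75, the spindle factor HMMR at -0.79, KIF14 at -0.69 and, higher, CENPM at 0.57. The day block gave 10 calls and array weights 22, and leaving out 1 day or 1 array gave between 0 and 8, with 0 without the control or the knockdown array of day 3, 1 without the control array of day 2 and 2 without the knockdown array of day 2. The shares of all genes called in these alternative fits are not given here. By day the median differences from control were -0.36, -0.30 and -0.28 on days 2 to 4 and 0.03 and -0.09 on days 5 and 6. Over the week within this arm only SGO1 was called, higher by 0.49, against 5.76% of all genes higher and 5.16% lower. With the difference at the start subtracted, no member differed from control by limma, where 0.631% of all genes were higher and 0.483% lower. An unadjusted p under 0.05 was reached by 1 member and by 1590 of the 13461 genes. Days 0 and 1 were not an unchanged baseline here. Among 7 tested pluripotency markers the lowest log2 difference from control was -1.47 on days 0 and 1 and -2.11 on the late arrays. Changes within the arm, or with the start subtracted, therefore leave out what had already changed by then. Of the 6 tested neuroectoderm markers 5 were higher in NANOG shRNA than in control cells on the late arrays, where 7.84% of all genes were higher. Their sums were 4624 to 5736 in NANOG shRNA cells, against 2534 to 3435 in control cells, and their part in these results was not tested. The SGO1 call within the arm ended without the knockdown array of day 0, 1 or 6, and without that of day 6 another member was called, lower.

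The SOX2 shRNA arm showed 2 members lower and 0 higher on days 4 to 7, where 4.71% of all genes were lower and 3.55% higher, with a median log2 difference of -0.05. BUB1 stood at 10.21, 10.00, 10.12 and 10.03 in SOX2 shRNA cells, against 10.83, 10.49, 10.71 and 10.47 in control cells, at a log2 difference of -0.54 (adjusted p = 0.026). KIF15 stood at 8.28, 8.00, 8.28 and 7.77 in SOX2 shRNA cells, against 8.40, 8.29, 8.66 and 8.78 in control cells, at -0.45 (adjusted p = 0.0184). Neither gene's arrays overlapped. BUB1 was not called without the SOX2 shRNA array of day 5, 6 or 7, at -0.54 to -0.51, or the control array of day 4 or 6. KIF15 was not called without the SOX2 shRNA array of day 5 or 7, at -0.43 and -0.35, or the control array of day 6 or 7. Without that control array of day 6 the 1 call left was a higher one, and the share of all genes called there is not given. On days 0 and 1, and on days 2 and 3, limma called no member in this arm. An unadjusted p under 0.05 was reached by 1 and 9 members in these windows, and by 533 and 1159 of the 13461 genes. Of all genes 0% were called on days 0 and 1, and on days 2 and 3 0.297% were called lower and 0.111% higher. Over the week KIF15 was lower by 0.64 within the SOX2 shRNA arm, the 1 member called there against 3.55% of all genes lower and 3.48% higher. With the difference at the start subtracted, no member differed from control by limma, where 0.0223% of all genes were lower and 0.00743% higher. An unadjusted p under 0.05 was reached by 1 member and by 1050 of the 13461 genes. The start was not an unchanged baseline in this arm. Among 7 tested pluripotency markers the lowest log2 difference from control was -1.97 on days 0 and 1 and -1.99 on days 4 to 7. Changes within the arm, or with the start subtracted, therefore leave out what had already changed by then. The KIF15 call over the week ended without the SOX2 shRNA array of day 0 or 1.

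The knockdowns were also set against each other on days 4 to 7. Against NANOG shRNA cells, 44 members were lower in OCT4 shRNA cells and 0 higher, with a median log2 difference of -0.66, where 21.9% of all genes were lower and 21.3% higher. Against SOX2 shRNA cells, 47 were lower and 0 higher, with a median of -0.63 and 23.5% of all genes lower and 23.7% higher. Between NANOG and SOX2 shRNA cells 3 members were higher and 2 lower, with 9.53% and 8.57% of all genes, and a median of -0.04. Without the NANOG shRNA array of day 4, 3 were called, with the share of all genes not given. These comparisons share arrays with those above.

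The H9 cells with the OCT4 shRNA did not show the fall. Between days 4 to 7 and days 0 and 1, 6 members were higher and 1 lower in H9, where 13.9% of all genes were higher and 13.1% lower, and the median log2 change was 0.12. The higher ones were CCNB2 at 0.88, CENPN at 0.79, KIF4A at 0.59, KIF2C at 0.57, CDCA8 at 0.50 and PTTG1 at 0.48, and the lower one was FOXM1 at -0.50. CCNB2 had levels of 10.97, 11.36, 11.55, 12.13, 12.23, 12.08, 11.95 and 11.92 on days 0 to 7 in H9, against 11.85, 11.66, 11.84, 11.96, 11.75, 11.04, 10.40 and 11.02 in H1 cells with the same shRNA. H9 was below H1 on days 0 to 2 and above it from day 3 on. Leaving out the H9 array of day 6 gave 4 calls. Fewer members were also called without the H9 array of day 0 or of day 1, each of which leaves 1 early array. The higher calls did not hold without the day 0 arrays of all arms. The median change ran from 0.11 to 0.18 without single days or arrays. The shares of all genes called in these fits are not given here. H9 has no control arm, so a change over its week cannot be set against an untreated course.

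The difference between the lines was tested directly. The change over the week was higher in H9 than in H1 for 35 of 57 members and lower for 0, with 14.1% of all genes higher and 14.3% lower, and the median log2 difference between the changes was 0.88. It was 1.88 for PTTG1, 1.75 for AURKB, 1.58 for CCNB2 and CENPN, and 1.65 for KIF2C. AURKB stood at 10.64 and 11.05 on days 0 and 1 and at 11.29, 11.30, 11.30 and 11.02 on days 4 to 7 in H9, against 11.66, 11.51, 10.66, 9.89, 9.93 and 10.40 in H1 on the same days. By role, all 4 passenger genes, 8 of 10 spindle genes, 7 of 11 entry genes, 6 of 9 kinetochore genes, 3 of 5 checkpoint genes, 3 of 6 cytokinesis genes, 2 of 7 anaphase genes and 2 of 5 chromosome genes differed between the lines. Fewer members were called without the arrays of day 0, which leaves 1 early array per arm. The share of all genes called in that fit is not given here. The median log2 difference ran from 0.74 to 0.99 without single days or arrays.

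**Figure D5:**
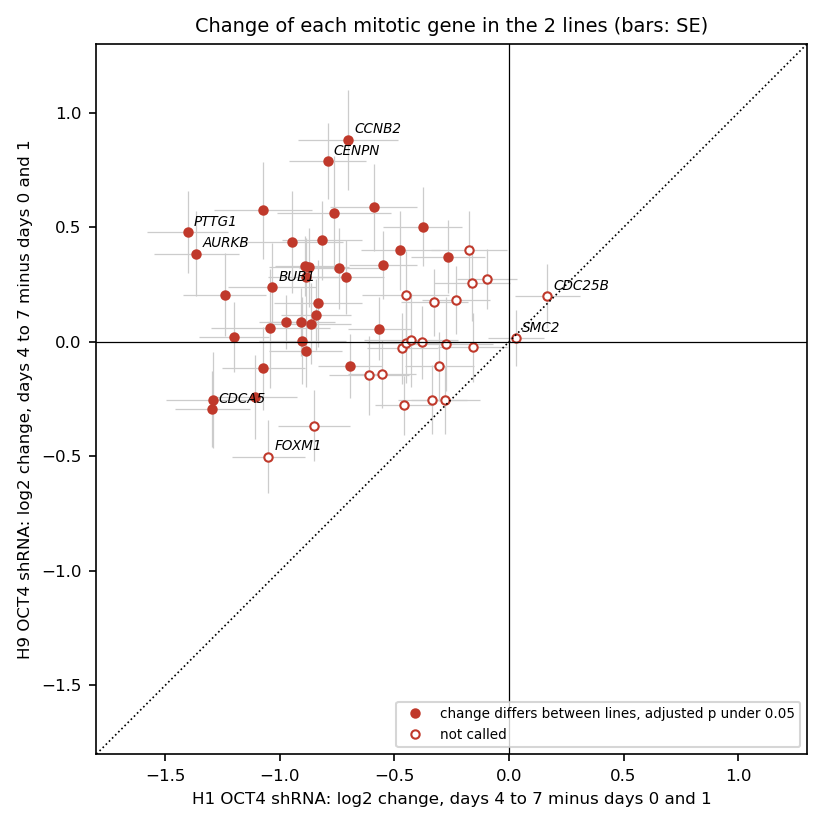
Log2 change of each tested member between days 4 to 7 and days 0 and 1 with the OCT4 shRNA, in H1 (horizontal axis) and H9 (vertical axis), with SE bars; filled points are members whose change differed between the lines, and the dotted line marks equal change. All but 1 of the members lie above that line, and 35 of them are filled.

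Several measured facts stand beside this difference. POU5F1 fell less in H9, to 9.97, 9.76, 9.04 and 8.54 on days 4 to 7 after 11.85 on day 0, against 7.17, 6.75, 6.77 and 6.46 after 12.33 in H1. SOX2 was at 12.70 to 12.97 on the late H9 arrays, against 7.84 to 10.04 in H1. The trophectoderm and amnion markers summed to 1280 to 1382 on the late H9 arrays, with 9 of 10 below background on all of them, against 27129 to 39893 in H1. The fibroblast markers summed to 3529 to 4312 in H9, against 6148 to 27598 in H1, and LUM and DCN were below background on all late H9 arrays. Of 6 tested neuroectoderm markers 4 were higher and 0 lower on days 4 to 7 than on days 0 and 1 in H9 (median log2 change 1.11), against 0 higher and 4 lower in H1 (median -0.82). Of all genes 13.9% were higher and 13.1% lower in H9, and 21.8% higher and 20.3% lower in H1. The part of the weaker knockdown and of these cell markers in the difference between the lines was not tested.

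The H9 values also rest on a repair, since from row 13058 on, the deposited values of H9 stand 2 rows early. Among the 26 members whose H9 rows were not moved, 17 differed between the lines with a median of 0.89, and among the 31 moved members 18 did, with a median of 0.86. The median change of H9 itself was 0.083 in the rows that were not moved and 0.167 in the moved ones, and that of H1 was -0.86 and -0.59 for the same genes.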

How the data were processed

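Total RNA was extracted with Trizol and DNase and labelled as biotinylated cRNA for 1-colour Illumina arrays, per the labels' protocols. The authors deposited probe intensity values on a linear scale, and neither the software nor the normalization is named in the labels. The intensity columns have medians between 135.619 and 135.686, so they were taken as already normalized between arrays, and not background subtracted (lowest 91.0). A further deposited table has 80 value columns whose names match no label; only its probe order was used.

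Background was corrected with limma 3.58.1 in R 4.3.3 (normexp, offset 50) before log2 was taken. A probe passed when above 145 on at least 4 arrays, which left 24706 probes. That level is the 99th percentile of a normal curve with the median and scaled median absolute deviation of 457 olfactory receptor probes. The filter replaced a detection filter that needed the unused columns. A gene is its passing probe with the highest mean; 3717 genes had several. Of the probes, 30113 had 1 gene symbol in the platform annotation, 8 several and 17202 none, and 30074 matched the current gene table, through which SGOL1 and SGOL2 read SGO1 and SGO2. H9 values from row 13058 were moved by 2 rows (correlation with H1 0.223 as deposited and 0.988 once moved), and 30 probes at the break were left out. The NANOG shRNA column of day 7 (median 6.80) was left out.

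limma (lmFit, eBayes) was fitted on means of arm by window of days over 39 arrays, with Benjamini-Hochberg adjustment over all genes, in 21 contrasts, and tested on simulated data. The number in a sample's title stands for its day, per the labels, and therefore pairs arrays; 33 of 56 same-day correlations of deviations were above 0.1 (median 0.13), and the day as a block is an alternative. Members and lists were chosen with earlier results of these data known. Values per array are given for the largest and the smallest difference in each role list and for each member called with the NANOG or SOX2 shRNA; genes outside this rule were picked knowing their values. Array number limits the precision.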

Additional observations from a re-analysis of the deposited data

Results flagged for a closer look

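The change over the week with the OCT4 shRNA differed between H9 and H1 for 11 of 21 members, by limma's interaction test with adjustment over all genes, where 14.1% of all genes were called higher and 14.3% lower. The 21 are the members picked by role list and by call on days 4 to 7 in H1, many of them for a large difference on the H1 arrays that this test also uses. As log2 differences between the changes, H9 minus H1, these were AURKB at 1.75, DLGAP5 at 1.45, KIF20A at 1.33, BUB1 at 1.27, CDC25C at 1.20 and AURKA at 1.17. The others were TOP2A at 1.10, CENPM at 1.06, CDCA5 at 1.00, KIF15 at 0.96 and CDCA8 at 0.88. In each of them the change was higher in H9.

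In 5 of 88 sets of 4 late arrays, 1 array stood apart from the other 3 by Dixon's criterion, which chance meets in about 1 in 20 sets. CDCA5 was high on day 4 of the H1 OCT4 shRNA arm, at 10.58 against 9.83 to 9.92 on the other late days. KIF18A was low on day 5 of the control arm, at 7.29 against 7.54 to 7.55. In H9 AURKB was low on day 7, at 11.02 against 11.29 to 11.30, DLGAP5 was high on 1 day, at 11.11 against 10.89 to 10.92, and ANLN was high on 1 day, at 9.25 against 9.06 to 9.07.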

How the results depend on the processing

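The fall with the OCT4 shRNA on days 4 to 7 kept its direction and count within 1.5 times under every alternative run: 44 to 54 members without single days or arrays, and 53 with the day as a replicate block. The block could be fitted only between arms, and it moved 2 counts by over 1.5 times, to 6 for the OCT4 shRNA and 10 for the NANOG shRNA on days 2 and 3. Array weights gave 19 calls for the late NANOG shRNA arm, 4 for the late SOX2 arm, 22 and 4 for these arms on days 2 and 3, 4, 2 and 1 for the changes within the NANOG, SOX2 and control arms, 14 between NANOG and SOX2 shRNA cells, and a median of -0.80 between OCT4 and NANOG shRNA cells. Fits on only the arms compared gave 11, 4 and 2 calls for late NANOG, late SOX2 and SOX2 on days 2 and 3, 0, 3 and 2 for the changes within the NANOG, SOX2 and H9 arms, and 8 between NANOG and SOX2 shRNA cells. An offset of 16, no filter on dim probes, or a fit without H9 each gave 0 calls for the change within the NANOG arm. Averaging probes, or leaving out H9, gave 2 calls for the OCT4 shRNA on days 2 and 3. Days 4 to 6 as the late window gave 1 call each for the late SOX2 arm and the control change. Keeping only members whose H9 rows were not moved, chosen after seeing the data, gave 4 calls in H9 and 17 between the lines. The shares of all genes called under these alternatives are not given here, so the changed counts are not read as results about the members. The cause of these shifts was not tested.

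Without single days or arrays, the counts ranged from 1 to 6 for late NANOG, 0 to 3 for late SOX2, 0 to 5 and 0 to 8 for OCT4 and NANOG on days 2 and 3, 31 to 50 for the change within the OCT4 arm, 0 to 1 within each of the NANOG, SOX2 and control arms, 1 to 10 in H9, 35 to 51 and 38 to 51 for OCT4 against NANOG and SOX2, 3 to 6 between the last of these, 12 to 43 with the start subtracted, and 18 to 43 between the lines. The single call changed side in 4 of these cases, each with 1 call left. Medians ranged from -0.081 to 0.13 for the change within the NANOG arm, -0.83 to -0.56 for OCT4 against NANOG, -0.11 to 0.13 and -0.13 to 0.11 for NANOG and SOX2 with the start subtracted, and 0.74 to 0.99 between the lines. For these fits too, the shares of all genes called are not given. Probes near background limit what dim members such as NUF2 can show.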
